A study of Homo sapiens with 18 samples.

Results

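The genes described here are the human guanylate-binding protein genes GBP1, GBP2, GBP3, GBP4 and GBP5, taken by their symbols from a matrix of gene counts, 5 of the 62754 genes it lists. They were measured by RNA sequencing in EA.hy926 cells, a human endothelial line made by fusing umbilical vein endothelial cells with the A549 lung carcinoma line, in 18 libraries. The cells called Mock received transfection reagent without siRNA, those called siNT received an siRNA that has no target, and those called siELMO1 received a pool of siRNAs against ELMO1, an engulfment adaptor that acts with DOCK proteins on the GTPase RAC1. Both siRNA transfections were at 10 nM, for siELMO1 with the pool as a whole. RNA was taken 48 h after transfection (0 h) or 24 h later, after culture with 1 μg/ml poly(I:C), a synthetic double-stranded RNA that is sensed by TLR3, with 3 libraries for each of the 6 conditions. All groups come from a single cell line, and the methods of the study call the 3 libraries of a condition biological replicates, without saying whether these were separate passages or experiments. The p-values measure the spread between such replicates of the line. No library was analysed here for the same 24 h without poly(I:C), and the treatment and the additional time in culture cannot be told apart.

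Guanylate-binding proteins are large GTPases of the dynamin superfamily that assemble on the membranes of intracellular pathogens and of damaged vacuoles. They are among the genes most strongly induced by interferons, through transcription factors that bind gamma-activated sites (GAS) and interferon-stimulated response elements (ISRE) in their promoters. GBP1, GBP2 and GBP5 carry a prenyl anchor at their C terminus while GBP3 and GBP4 do not, and GBP1 is a known marker of endothelial cells exposed to inflammatory cytokines.

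All 5 genes lie on the minus strand of chromosome 1 (GRCh38) within 266.2 kb. GBP3 is annotated at 89006679 to 89022894, GBP1 at 89051882 to 89065360, GBP2 at 89106132 to 89150456, GBP4 at 89181144 to 89198942 and GBP5 at 89256189 to 89272860. GBP2 overlaps GBP7 on the same strand, and GBP2, GBP4 and GBP5 each overlap a long non-coding RNA gene on the opposite strand. The libraries were made with a stranded kit, and whether the counting used the strand is not given in the sources used here. The coding sequences of GBP1 and GBP3 were 91.6% identical over the aligned bases, while GBP4 was at most 67.7% identical to any other member. Of the stretches of 100 bases in the main transcript of GBP1, 1.98% occurred identically in another gene of the family, and none did for the other 4 genes. In stretches of 50 bases the share was 14.04% for GBP1, 4.18% for GBP3, 1.66% for GBP2, 0.31% for GBP4 and 0 for GBP5. Reads from these stretches could be divided between genes by the counting, and this was not tested.

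The RefSeq promoter table (build GRCh38.p14) holds 3 of the 5 genes, GBP1, GBP3 and GBP4, and lacks GBP2 and GBP5. The 3 promoters are shown because they are the ones the table holds, and they were searched for the letters of interferon response elements. Each runs from 250 bases before the start of transcription to 30 bases after it, 5′ to 3′ on the minus strand, at chr1:89065179-89065458 for GBP1, chr1:89022837-89023116 for GBP3 and chr1:89198913-89199192 for GBP4. Capitals mark matches to an ISRE core, searched on both strands as GAAA and GAAA with 2 bases of any kind between them, and to a GAS core, searched as the palindromic TTCNNNGAA.
GBP1: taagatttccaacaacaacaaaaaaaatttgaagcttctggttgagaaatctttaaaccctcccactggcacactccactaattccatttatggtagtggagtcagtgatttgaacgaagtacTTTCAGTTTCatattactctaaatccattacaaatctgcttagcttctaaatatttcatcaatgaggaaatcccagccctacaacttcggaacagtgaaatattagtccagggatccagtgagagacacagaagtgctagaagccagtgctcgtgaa
GBP3: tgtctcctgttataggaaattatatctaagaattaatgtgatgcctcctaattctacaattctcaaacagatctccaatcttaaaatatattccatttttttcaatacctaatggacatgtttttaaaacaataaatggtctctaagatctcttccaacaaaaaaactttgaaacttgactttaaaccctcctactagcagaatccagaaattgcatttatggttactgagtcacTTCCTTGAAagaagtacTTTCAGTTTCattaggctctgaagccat
GBP4: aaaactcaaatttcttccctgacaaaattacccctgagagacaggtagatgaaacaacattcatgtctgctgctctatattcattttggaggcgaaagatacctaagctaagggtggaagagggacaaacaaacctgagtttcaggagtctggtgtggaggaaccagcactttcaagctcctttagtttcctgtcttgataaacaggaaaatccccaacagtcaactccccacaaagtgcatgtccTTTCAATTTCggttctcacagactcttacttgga
All 3 promoters held an ISRE core, which 3.39% of the 35116 RefSeq promoters of the same 280 bases hold. In GBP1 it lay 127 to 118 bases before the start, in GBP3 at bases 3 to 12 after it, and in GBP4 across it, from 4 bases before to 6 bases after. These positions refer to the RefSeq start, which is 89065208 for GBP1. The annotated transcripts GBP1-202, GBP1-208 and GBP1-209 start upstream of it, at 89065360, and the ISRE core of GBP1 lies downstream of that start. GBP3 alone among them held a GAS core, 15 to 7 bases before its start, and 7.3% of all promoters hold one. GBP4 held an NF-kB core, searched on both strands as GGGA and CC with 4 bases of any kind between them, 45 to 36 bases before its start, which 24.15% of all promoters hold. These are matches of letters, and no binding was measured here.

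The 18 libraries held between 40.4 and 73.9 M estimated counts each. ELMO1, the target of the knockdown, was at 3.02 ± 0.0288 CPM for Mock, 2.94 ± 0.339 CPM for siNT and 0.340 ± 0.0686 CPM for siELMO1 at 0 h (mean ± SD, n = 3, where CPM are counts scaled by library total and TMM factor to 1e6). At 24 h the means were 2.32 ± 0.737, 3.31 ± 0.307 and 0.267 ± 0.104 CPM in the same order. It was lower in siELMO1 than in siNT cells by 3.11 ± 0.28 (log2 ± SE) at 0 h and by 3.64 ± 0.29 at 24 h, with adjusted p of 2.74e-08 and 1.43e-08 in edgeR's quasi-likelihood test with Benjamini-Hochberg adjustment over all genes tested, which is the edgeR adjusted p given throughout. Of 14 endothelial markers, 13 were above 1 CPM in every library, CDH5 from 339 to 978 CPM, and the exception was CLDN5 at 0 to 0.210 CPM. Of 8 leukocyte markers, 7 were below 1 CPM in every library, with CD3E and TYROBP listed at 0 throughout and LYZ at 1.58 to 7.50 CPM. Of 8 epithelial markers, only 3, the keratins KRT7, KRT8 and KRT18, were above 1 CPM in every library. Another 3 were below 1 CPM in every library, among them CDH1, which was listed at 0. The summed endothelial markers ran from 3023 to 3693 CPM for siELMO1 and from 2272 to 2535 CPM for siNT cells at 24 h, and the summed leukocyte markers from 4.98 to 8.40 and from 3.98 to 4.600 CPM. In Mock at 24 h these sums ran from 1754 to 2217 and from 2.76 to 3.72 CPM. The summed fibroblast and smooth muscle markers, of which only ACTA2 was above 1 CPM in every library and DCN and LUM were at 0 throughout, ran from 28.1 to 31.6 CPM for siELMO1, from 10.5 to 13.6 CPM for siNT and from 17.8 to 21.4 CPM for Mock at 24 h. The summed epithelial markers ran from 1099 to 1314, from 1011 to 1056 and from 843 to 862 CPM in the same order. The part of these differences in the results on GBP genes was not tested.

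Poly(I:C) was followed by higher levels of all 5 GBP genes in all 3 kinds of cells. GBP1, GBP2 and GBP3 rose from levels that were already measurable, while GBP4 and GBP5 rose from a few counts. At 24 h the levels in siNT cells were below those in Mock cells for all 5 genes, and in siELMO1 cells GBP3, GBP4 and GBP5 were above siNT whereas GBP1 and GBP2 were not distinguishable from it. In these bulk samples fewer cells that express a gene and less RNA for each cell cannot be told apart.

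**Figure D1:**
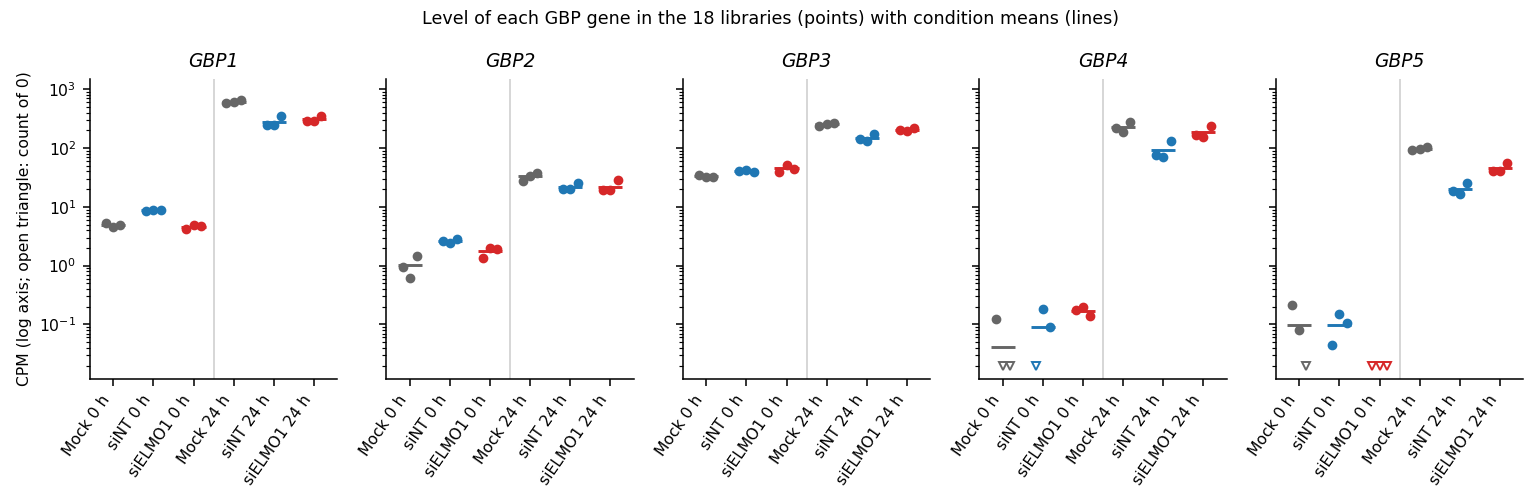
Level of GBP1 to GBP5 in CPM (log axis) in each of the 18 libraries, with points for libraries, lines for the means of 3 libraries and open triangles for counts of 0. All 24 h libraries lie above all 0 h libraries for every gene, and among them the siNT means are below the Mock means.

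GBP1, the founding human member, which binds bacterial lipopolysaccharide and recruits other family members, was at 5.37, 4.62 and 4.94 CPM in the 3 Mock libraries at 0 h, at 8.57, 8.97 and 9.00 CPM for siNT and at 4.12, 4.84 and 4.67 CPM for siELMO1 cells. At 24 h it was at 586, 614 and 647 CPM for Mock, 247, 242 and 354 CPM for siNT and 285, 283 and 349 CPM for siELMO1 cells. The siNT and siELMO1 libraries overlapped at 24 h and lay below every Mock library, while at 0 h the siNT libraries lay above all others. GBP1 rose by 6.95 ± 0.15 (log2 ± SE) in Mock, 4.99 ± 0.14 in siNT and 6.08 ± 0.15 in siELMO1 cells, which is 124-fold, 31.8-fold and 67.8-fold (edgeR adjusted p of 1.01e-16, 5.39e-15 and 6.41e-16).

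GBP2, a geranylgeranylated member that joins GBP1 on pathogen membranes, had the lowest level per length of the 5 genes in Mock cells at 24 h. Its levels at 0 h were 0.931, 0.621 and 1.47 CPM for Mock, 2.64, 2.40 and 2.81 CPM for siNT and 1.37, 2.03 and 1.91 CPM for siELMO1 cells. At 24 h they were 27.1, 33.7 and 37.5 CPM for Mock, 20.4, 20.4 and 25.5 CPM for siNT and 19.3, 19.1 and 28.0 CPM for siELMO1 cells. Every Mock library was above every siNT library at 24 h, but the siELMO1 library at 28.0 CPM reached into the Mock range. The gene rose by 5.01 ± 0.24 in Mock, 3.08 ± 0.22 in siNT and 3.67 ± 0.23 in siELMO1 cells (edgeR adjusted p of 6.68e-12, 2.29e-09 and 3.87e-10).

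GBP3, the member closest to GBP1 in sequence, already had the highest level per length of the 5 genes before treatment. It was at 34.5, 32.6 and 32.0 CPM for Mock, 40.7, 42.9 and 39.4 CPM for siNT and 39.5, 51.5 and 44.2 CPM for siELMO1 cells. After poly(I:C) it was at 241, 254 and 265 CPM for Mock, 142, 129.9 and 172 CPM for siNT and 202, 196 and 215 CPM for siELMO1 cells. The 3 conditions did not overlap at 24 h, with Mock above siELMO1 and siELMO1 above siNT. Its rise was the smallest of the 5 genes in each kind of cell, 2.94 ± 0.10 in Mock, 1.85 ± 0.10 in siNT and 2.18 ± 0.10 in siELMO1 cells (edgeR adjusted p of 3.71e-14, 3.02e-11 and 2.44e-12).

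GBP4, which takes part in the recruitment of caspase-4 to bacteria coated by the family, was close to the limit of detection at 0 h. It had 8, 0 and 0 counts in the Mock libraries, 0, 11 and 6 in siNT and 13, 8 and 7 in siELMO1, where 3 counts correspond to 0.0383 to 0.0752 CPM at this depth. At 24 h GBP4 was at 221, 191 and 279.7 CPM for Mock, 77.1, 69.0 and 131 CPM for siNT and 164, 154 and 238 CPM for siELMO1 cells. The siNT libraries lay below all others, and the Mock and siELMO1 libraries overlapped. The fitted rise was 12.53 ± 0.48 in Mock, 10.02 ± 0.45 in siNT and 10.06 ± 0.42 in siELMO1 cells (edgeR adjusted p of 2.65e-13, 4.75e-12 and 1.21e-12), with a denominator of at most 13 counts in any library.

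GBP5, a Golgi-resident member that interferes with the protease furin and has been linked to NLRP3 activation, had 14, 6 and 0 counts in Mock, 3, 9 and 7 in siNT and 0 in each siELMO1 library at 0 h. After poly(I:C) it was at 91.7, 98.1 and 102 CPM for Mock, 18.6, 16.3 and 25.9 CPM for siNT and 41.1, 41.0 and 55.8 CPM for siELMO1 cells. The 3 conditions were separated at 24 h, in the order siNT, siELMO1 and Mock. It rose by 10.01 ± 0.35 in Mock and 7.67 ± 0.36 in siNT cells (edgeR adjusted p of 6.97e-13 and 6.60e-11). In siELMO1 cells GBP5 had no count at 0 h. Taking 3 counts for each of these libraries, it was 784-fold higher at 24 h (edgeR adjusted p of 5.53e-12). This fold depends on the chosen floor and would be smaller with a higher one.

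All 5 genes were thus called higher (adjusted p under 0.05) after poly(I:C) in the Mock, siNT and siELMO1 groups, where 30.7%, 28.6% and 28% of the 15167 genes tested were. GBP4 and GBP5, with 53 and 39 counts over all 9 libraries at 0 h and a maximum under 1 CPM there, passed the filter on low counts through the 24 h libraries alone, so that they had to differ with time and the count of 5 is no support. The 15 responses kept their call under each of the 26 alternative settings. For GBP4 and GBP5 this is no support either, and it bears only on GBP1, GBP2 and GBP3. In each of the 3 conditions at 24 h, replicate 3 had the highest level of all 5 genes.

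**Figure D2:**
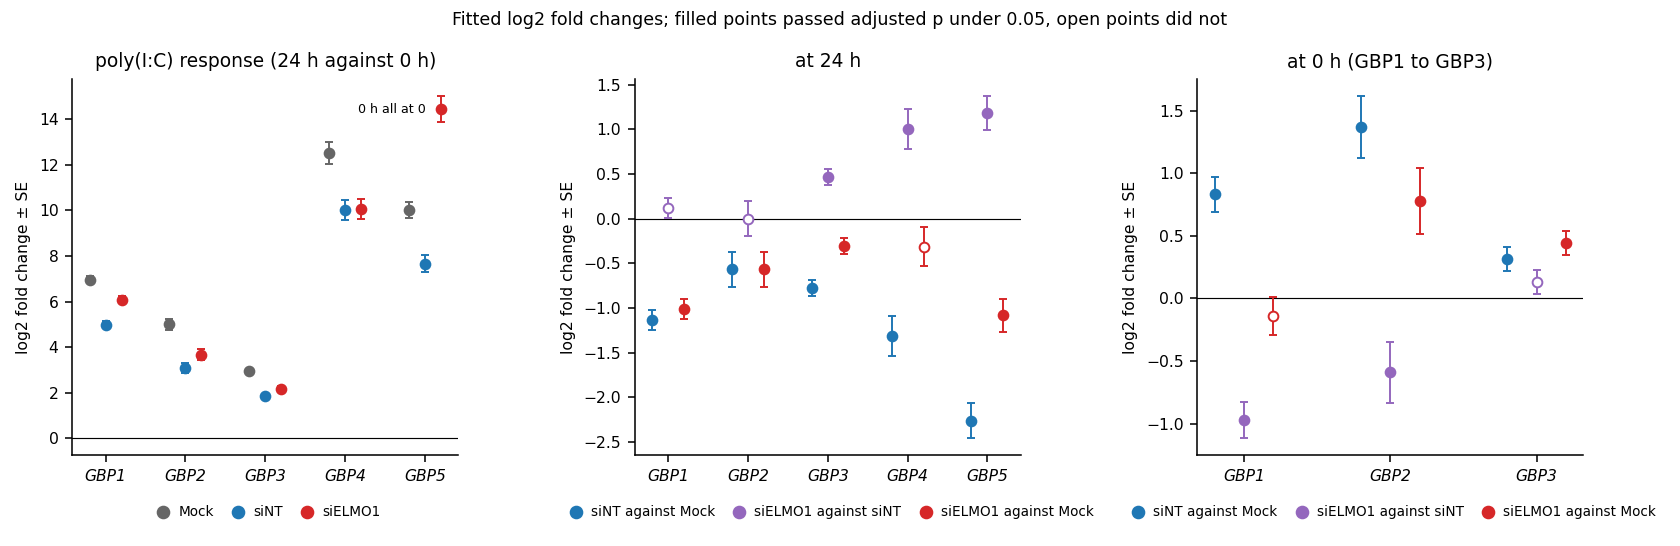
Fitted log2 fold changes with their SE for the poly(I:C) responses, for the comparisons between cells at 24 h and, for GBP1 to GBP3, for those at 0 h; filled points passed an adjusted p under 0.05. The siELMO1 response of GBP5 was fitted against libraries that all had 0 counts, so its height is no measured fold; at 24 h the values of siELMO1 against siNT are near 0 for GBP1 and GBP2 and from 0.46 to 1.18 for GBP3 to GBP5.

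The comparison of siNT with Mock at 24 h sets levels after poly(I:C) with an siRNA without a target beside those without siRNA. The responses themselves are compared further below, as interaction terms. All 5 genes were lower in siNT, where 24.9% of the genes tested were. GBP5 fell by 2.26 ± 0.20 on the log2 scale, which is 4.80-fold, GBP4 fell by 1.32 ± 0.22, GBP1 fell by 1.13 ± 0.11, GBP3 fell by 0.77 ± 0.09 and GBP2 fell by 0.57 ± 0.19 (edgeR adjusted p of 1.71e-07, 0.000104, 3.10e-07, 2.09e-06 and 0.0204). No library of the 2 conditions overlapped for any of the 5. The share of all genes tested whose libraries do not overlap is not given here, for this or the other comparisons. The call of GBP2 was lost without Mock replicate 2 or 3 or without siNT replicate 1 or 2 (edgeR adjusted p from 0.0524 to 0.0923), and that of GBP4 with DESeq2 (adjusted p of 0.0727).

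The comparison of siELMO1 with siNT at 24 h sets 2 groups side by side that both carried an siRNA. The study reports that the death seen in siNT cells was significantly reduced in siELMO1 cells. The part of this in the differences between their GBP levels was not tested. GBP5 was higher in siELMO1 by 1.18 ± 0.19 (2.27-fold), GBP4 by 1.00 ± 0.22 (2.00-fold) and GBP3 by 0.46 ± 0.09 (1.38-fold), with edgeR adjusted p of 9.72e-05, 0.00111 and 0.000387 and no overlap of libraries. These are 3 of 5 genes, beside 26% of all genes tested. GBP1 differed by 0.12 ± 0.11 (edgeR adjusted p of 0.387), an interval of 2 SE from −0.10 to 0.35, and GBP2 by −0.00028 ± 0.19 (edgeR adjusted p of 1.0), from −0.39 to 0.39, and for both the libraries overlapped. The upper ends of both intervals lie below the 0.46 of GBP3 and within its own interval of 2 SE, from 0.28 to 0.65. The result for GBP1 turned on siNT replicate 3, without which it was 0.32 higher in siELMO1 with an edgeR adjusted p of 0.00336. The call of GBP4 was lost with DESeq2 (adjusted p of 0.174).

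Against Mock at 24 h, siELMO1 cells had lower levels of 4 of the 5 genes, where 22% of the genes tested were lower. GBP5 fell by 1.08 ± 0.19, GBP1 fell by 1.01 ± 0.11, GBP2 fell by 0.57 ± 0.19 and GBP3 fell by 0.31 ± 0.09 (edgeR adjusted p of 0.000215, 1.25e-06, 0.0234 and 0.0104). For GBP4 the difference was −0.31 ± 0.22 (edgeR adjusted p of 0.267), and the libraries overlapped. This comparison shares its Mock libraries with that of siNT and its siELMO1 libraries with the comparison against siNT. The call of GBP2 was lost with DESeq2 and in 4 of the 18 fits without a library (edgeR adjusted p up to 0.102), those without Mock replicate 2 or 3 or without siELMO1 replicate 1 or 2 at 24 h.

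Before poly(I:C), at 0 h, the non-targeting siRNA alone went with higher levels of 3 of the 5 genes relative to Mock, where 27.6% of the genes tested were higher. GBP2 rose by 1.37 ± 0.25, GBP1 by 0.83 ± 0.14 and GBP3 by 0.31 ± 0.09 (edgeR adjusted p of 0.000180, 7.53e-05 and 0.0104), with no overlap of libraries. The call of GBP3 was lost without Mock replicate 2 or 3 (edgeR adjusted p of 0.0580 and 0.0689). GBP4 differed by 1.20 ± 1.65 and GBP5 by 0.08 ± 0.86 (edgeR adjusted p of 0.572 and 0.948), each on 14 or fewer counts in any library.

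In siELMO1 cells at 0 h, 3 genes were called lower than in siNT, where 31.3% of the genes tested were. GBP1 fell by 0.97 ± 0.15 (1.96-fold; edgeR adjusted p of 1.41e-05), to the level of Mock cells, from which it differed by −0.14 ± 0.15 (edgeR adjusted p of 0.465). GBP2 fell by 0.59 ± 0.24 (edgeR adjusted p of 0.0435), a call lost under 10 of the 26 alternatives, among them DESeq2, limma-voom, no filter and the fits without any 1 of the 3 siNT libraries or without siELMO1 replicate 1 or 3 at 0 h, Mock replicate 1 at 0 h or Mock replicate 2 at 24 h (adjusted p up to 0.201). GBP5 went from 3, 9 and 7 counts in siNT to 0 in every siELMO1 library (edgeR adjusted p of 0.0349). Taking 3 counts for each siELMO1 library makes it 1.69-fold lower. This is no firm bound, since siNT replicate 1 is itself at 3 counts. The call of GBP5 was lost under 7 alternatives, which include leaving out any siELMO1 library or siNT replicate 2 or 3 at 0 h (adjusted p up to 0.160). GBP3 differed by 0.13 ± 0.09 (edgeR adjusted p of 0.236), and GBP4 by 0.95 ± 1.24 (edgeR adjusted p of 0.522). Relative to Mock at 0 h, GBP3 was higher by 0.44 ± 0.10 and GBP2 by 0.78 ± 0.27 in siELMO1 (edgeR adjusted p of 0.000793 and 0.0211), 2 of 5 genes beside 27.9% of all genes tested, though 1 siELMO1 library of GBP2 at 1.37 CPM lay below the highest Mock library at 1.47 CPM. The call of GBP2 was lost under 6 alternatives, those with limma-voom, with only the groups compared, without Mock replicate 1 or 2 and without siELMO1 replicate 2 or 3 (adjusted p up to 0.174). GBP5 was the 1 gene called lower than in Mock, beside 22.4% (edgeR adjusted p of 0.0460), although 1 Mock library also had 0 counts. With the same 3 counts it was 1.68-fold lower, again no firm bound. This call was lost under 13 of 26 alternatives (adjusted p up to 0.388), which include leaving out Mock replicate 1 or 2, siNT replicate 2 or 3 or any siELMO1 library at 0 h, Mock replicate 2 at 24 h or siNT replicate 1 at 24 h. The comparisons at 0 h share their Mock, siNT and siELMO1 libraries with each other.

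The levels of each gene can be ordered over the 6 conditions. GBP1 was lowest in siELMO1 and Mock at 0 h, which were not distinguishable, followed by siNT at 0 h, by siNT and siELMO1 at 24 h, which were not distinguishable either, and by Mock at 24 h. GBP2 had the order Mock, siELMO1 and siNT at 0 h, with overlap between Mock and siELMO1, then siNT and siELMO1 at 24 h without a distinguishable difference, then Mock at 24 h. For GBP3 it was Mock and then siNT and siELMO1 at 0 h, the latter not distinguishable, then siNT, siELMO1 and Mock at 24 h. GBP4 was at 13 or fewer counts in every 0 h library with no call between conditions, and at 24 h it had siNT below siELMO1 and Mock. GBP5 was lowest in siELMO1 at 0 h, with 0 counts, and was called below Mock, which has a library at 0 too, and below siNT. Mock and siNT were not distinguishable, and at 24 h it had the order siNT, siELMO1 and Mock.

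The poly(I:C) responses themselves were compared as interaction terms of the same model. Between siNT and Mock the response of GBP1 was lower by 1.96 ± 0.18 on the log2 scale, that of GBP2 by 1.94 ± 0.32 and that of GBP3 by 1.09 ± 0.13 (values of −1.96, −1.94 and −1.09; edgeR adjusted p of 3.16e-07, 0.000148 and 7.52e-06). These 3 of 5 genes stand beside 16% of all genes tested that were lower. The difference combines a higher level at 0 h with a lower one at 24 h for each of the 3 genes. GBP4 and GBP5 differed by −2.52 ± 1.68 and −2.34 ± 0.94 (edgeR adjusted p of 0.284 and 0.0712), with their few counts at 0 h in the denominator. The difference of GBP5 passed the threshold with DESeq2 (adjusted p of 0.00319), and without Mock replicate 1 at 0 h (0.0211) or siNT replicate 3 at 24 h (0.0328).

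Between siELMO1 and siNT the response was larger for GBP1, by 1.09 ± 0.18 (edgeR adjusted p of 0.000167), and was called larger for GBP5 (edgeR adjusted p of 0.0160), 2 of 5 genes beside 16.7% of all genes tested. For GBP1 the levels at 24 h did not differ by the test, and the larger response went with the lower level at 0 h. The fitted value of GBP5 rests on counts of 0 in the siELMO1 libraries at 0 h, and its call was lost with limma-voom and without siNT replicate 2 at 0 h (adjusted p of 0.0970 and 0.0543). GBP2, GBP3 and GBP4 differed by 0.59 ± 0.31, 0.33 ± 0.13 and 0.05 ± 1.98 (edgeR adjusted p of 0.158, 0.0607 and 0.992). The difference of GBP3 passed the threshold with DESeq2 (adjusted p of 0.0273), with limma-voom (0.0436) and without siELMO1 replicate 2 at 0 h (0.0130) or siNT replicate 3 at 24 h (0.00498). Between siELMO1 and Mock the response was lower for GBP1 by 0.87 ± 0.19, for GBP2 by 1.35 ± 0.33 and for GBP3 by 0.75 ± 0.13 (values of −0.87, −1.35 and −0.75, with edgeR adjusted p of 0.00225, 0.00511 and 0.000365), 3 of 5 genes beside 14.6%. GBP4 and GBP5 differed by −2.47 ± 1.47 and 4.43 ± 2.38 (edgeR adjusted p of 0.233 and 0.187), with few or no counts at 0 h in the denominator. GBP5 was called higher with DESeq2.

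Levels of different genes were compared per length, as TPM, the counts of each transcript over its annotated length, scaled to the same sum in every library. The 5 genes summed to 33.6 ± 1.85 TPM in Mock, 38.7 ± 2.87 in siNT and 39.7 ± 5.90 in siELMO1 cells at 0 h (mean ± SD, n = 3). At 24 h the sums were 738 ± 53.7, 357 ± 80.6 and 462 ± 60.0 TPM, that is 22.0, 9.24 and 11.7 times the sums at 0 h. Every Mock library at 24 h, the lowest at 705 TPM, lay above every siNT and siELMO1 library, and the siNT library at 449.8 TPM lay above the siELMO1 libraries at 430.03 and 426 TPM.

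Before poly(I:C), GBP3 made up 84.5 ± 2.99% of the sum in Mock, 80.8 ± 1.46% in siNT and 86.2 ± 1.47% in siELMO1 cells, and GBP1 13.5 ± 3.13%, 15.2 ± 1.33% and 10.9 ± 1.49%. At 24 h GBP1 led in every library, with 56.9 ± 1.13% in Mock, 54.5 ± 1.07% in siNT and 45.9 ± 0.244% in siELMO1 cells. GBP3 then held 24.6 ± 0.515%, 30.5 ± 1.95% and 32.6 ± 2.53%. GBP4 held 11.4 ± 1.59%, 9.45 ± 1.33% and 15.1 ± 1.88%, and GBP5 4.65 ± 0.156%, 2.03 ± 0.131% and 3.65 ± 0.289%, with no overlap between conditions for GBP5. GBP2 held 1.80% to 3.87% in all conditions.

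**Figure D3:**
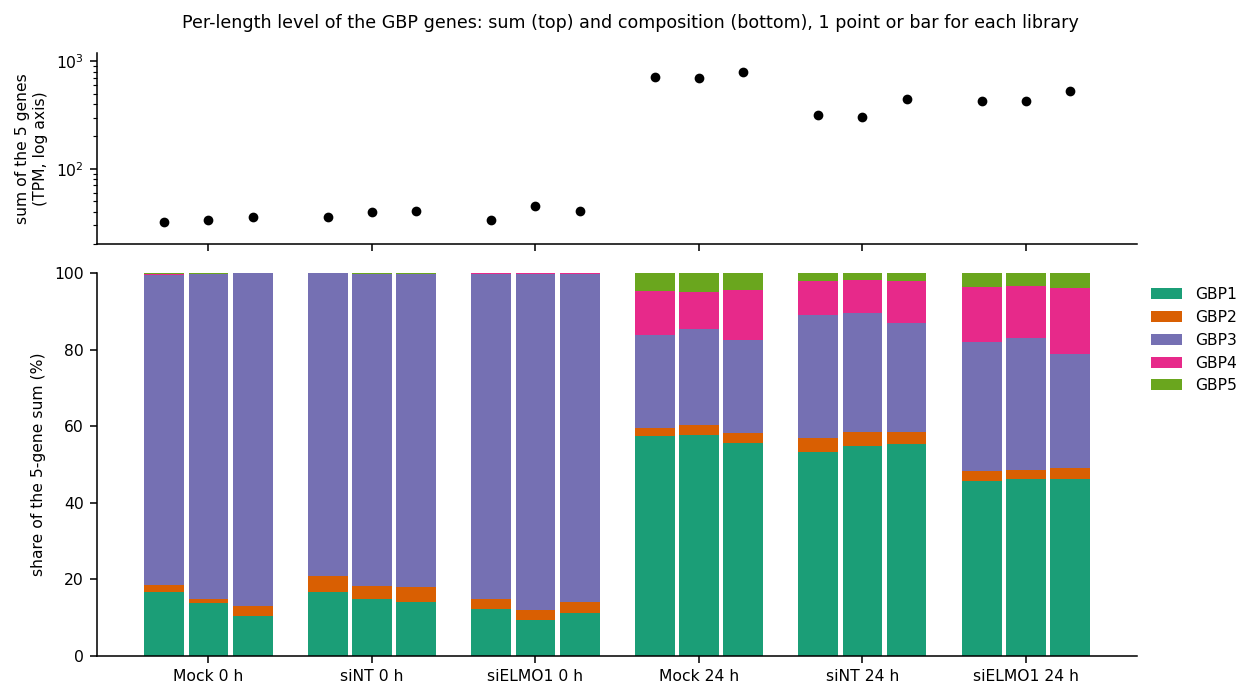
Sum of the 5 genes in TPM (top, log axis) and the percent of that sum held by each gene (bottom, stacked from 0) in each of the 18 libraries. GBP3 holds 79.1% or more of the sum in every 0 h library, and GBP1 45.7% or more in every 24 h library.

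The annotation lists 32 transcripts for the 5 genes, of which 18 passed the filter in the transcript matrix. In Mock, siNT and siELMO1 cells 11, 7 and 10 of them were called higher after poly(I:C), where 4.98%, 3.67% and 4.78% of the 54867 transcripts tested were. Of the 18, 8 were under 1 CPM in every 0 h library, 4 of them at 0, and passed the filter through the 24 h libraries alone, so that they had to differ with time and these counts are no support. Among the other 10 transcripts, 4, 1 and 4 were called higher. Called transcripts in all 3 kinds of cells included the coding GBP1-201, GBP4-201 and GBP5-201. GBP1-201 rose by 6.13 ± 0.56, 6.16 ± 0.56 and 4.74 ± 0.53 (edgeR adjusted p of 4.66e-06, 8.30e-06 and 3.83e-05). Its smallest rise was thus in siELMO1 cells, whereas that of the whole gene was in siNT cells. At 0 h it held 62.1 ± 40.4%, 17.4 ± 4.68% and 86.8 ± 6.55% of the transcript CPM of GBP1 in Mock, siNT and siELMO1 (mean ± SD, n = 3). At 24 h a single transcript was called lower in siNT than in Mock, the retained-intron GBP5-204 by −2.57 ± 0.44 (edgeR adjusted p of 0.0174), where 2.19% of transcripts were lower, and 6 transcripts had an unadjusted p under 0.05. For siELMO1 against siNT at 24 h edgeR called 0 of the 18 higher, where 2.86% of all transcripts were, and 1 had an unadjusted p under 0.05. No other tool was run on transcripts, and filterByExpr and library totals also gave 0.

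The assignment of counts to transcripts varied between libraries of the same condition. In Mock cells at 0 h the retained-intron GBP3-203 took 77.4%, 4.22% and 0% of the transcript CPM of GBP3, and the retained-intron GBP1-208 took 0%, 0% and 79.8% of that of GBP1. At 24 h the shares lay closer together, at 70.2% to 80.0% for GBP3-203 and at 33.7% to 63.8% for GBP1-208. The coding GBP1-201 held 29.3% to 43.3% of GBP1 at 24 h. GBP4-201 held over 99.9% of GBP4 and GBP5-201 83.9% to 91.4% of GBP5 at 24 h. A retained-intron model shares most of its exons with the coding transcript, and how much of these shares is unspliced RNA was not tested.

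**Figure D4:**
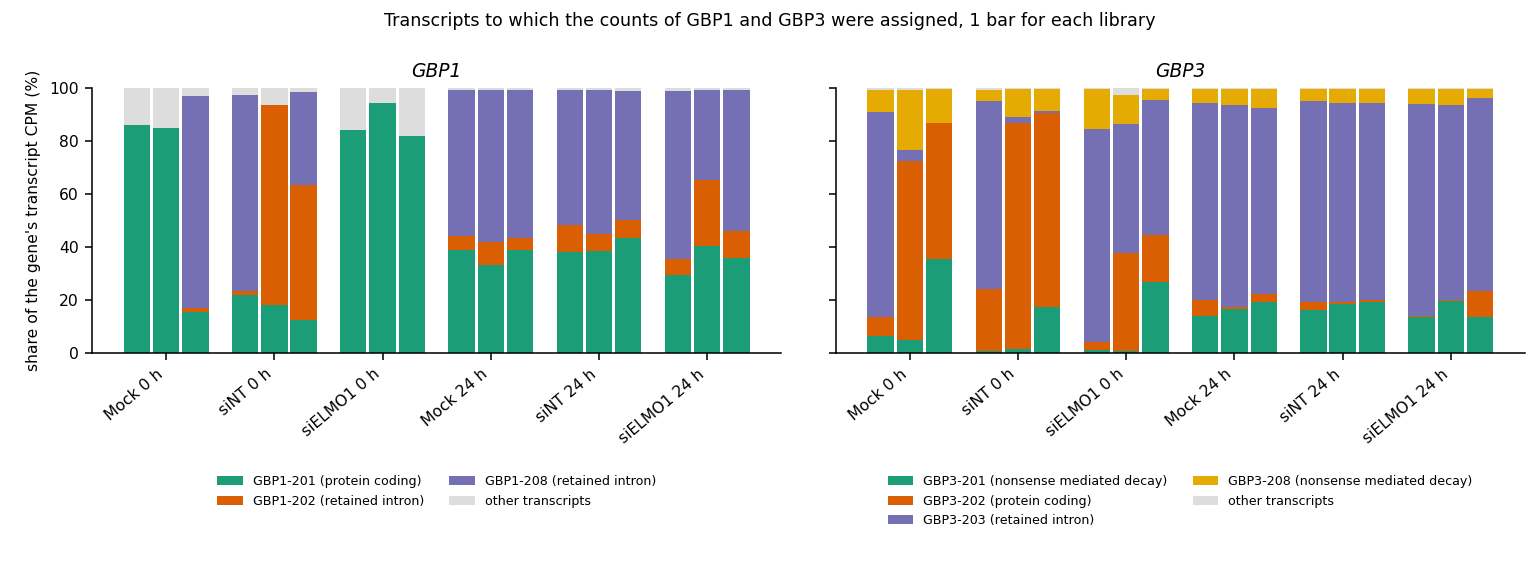
Percent of the transcript CPM of GBP1 (left) and GBP3 (right) assigned to each of their leading transcripts, 1 stacked bar for each library. The bars of a condition differ at 0 h, where GBP3-203 ranges from 0% to 77.4% in Mock, and are more alike at 24 h.

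The other GBP genes of the locus were low. They are named here with their values seen. GBP7 had no count in Mock and siELMO1 at 0 h and up to 4 in siNT, and was at 1.42 ± 0.298 CPM for Mock, 0.809 ± 0.346 CPM for siNT and 1.24 ± 0.175 CPM for siELMO1 cells at 24 h. The annotation has overlapping entries under the name GBP1P1, both listed at 0 in every 0 h library. The one typed as a long non-coding RNA (ENSG00000290525.1) reached 2.70 ± 0.331, 1.40 ± 0.659 and 2.54 ± 0.798 CPM at 24 h in the order Mock, siNT, siELMO1, and the one typed as a pseudogene (ENSG00000225492.7) 2.16 ± 0.693 CPM for Mock and 0.712 ± 0.224 CPM for siNT, with the siELMO1 libraries from 0.978 to 1.88 CPM. The first of them is the entry counted in the list that follows. GBP6 had at most 17 counts in any library and was not tested. A list of 10 other GBP and large interferon-inducible GTPase genes was tested in 8 of them. These include the ATPase RNF213, the non-coding entry GBP1P1 and the pseudogene GVINP1. Of the 8, 7 rose and 1 did not pass the test in Mock cells after poly(I:C). The numbers were 8 of 8 higher in siNT and 7 higher and 1 lower in siELMO1 cells. Over all genes tested 30.7%, 28.6% and 28% were higher in Mock, siNT and siELMO1 cells, and 26.9% were lower in siELMO1 cells. GBP7, GBP1P1 and MX2, 3 of the 8, were under 1 CPM in every 0 h library and passed the filter through the 24 h libraries alone, so that they had to differ with time and these counts are no support. At 24 h 5 of 8 were lower in siNT than in Mock, beside 24.9% of all genes tested, and 3 of 8 higher in siELMO1 than in siNT, beside 26%.

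**Figure D5:**
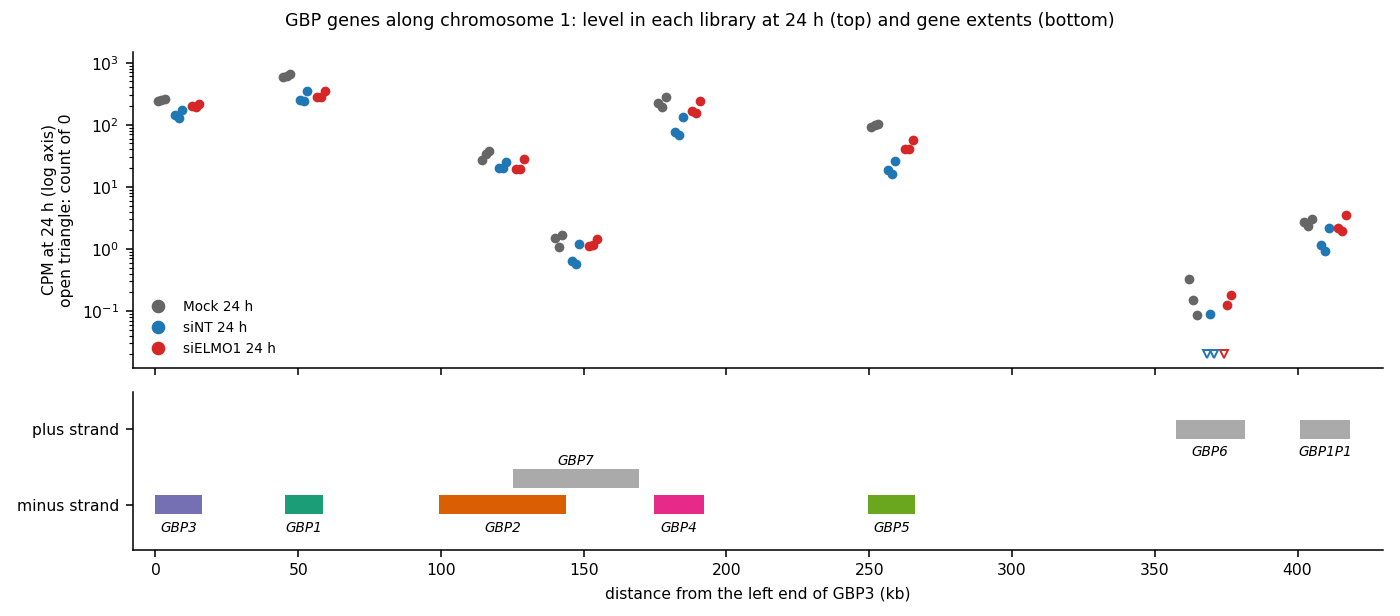
Positions of the GBP genes on chromosome 1 in kb from the left end of GBP3 (bottom) and their levels in CPM (log axis) in each library at 24 h (top), with open triangles for counts of 0. The 5 genes described lie within 266.2 kb; GBP7 and GBP1P1 (the long non-coding RNA entry) are near 1 CPM and GBP6 is below them.

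In this list RNF213, a giant AAA ATPase and ubiquitin ligase, rose by 2.45 ± 0.11 in Mock, 2.51 ± 0.11 in siNT and 2.54 ± 0.11 in siELMO1 cells, and at 24 h it was higher in siNT than in Mock by 0.26 ± 0.10 (edgeR adjusted p of 1.56e-12, 2.32e-12, 1.33e-12 and 0.0456). MX2, a dynamin-like restriction factor, was at 346 ± 30.1, 235 ± 54.6 and 334 ± 29.9 CPM at 24 h in the order Mock, siNT, siELMO1, which is kept for the values that follow. IFI44L was at 333 ± 19.4, 258 ± 26.5 and 347 ± 26.2 CPM and IFI44 at 348 ± 5.35, 233 ± 15.9 and 304 ± 16.2 CPM. These 3 were lower in siNT than in Mock and higher in siELMO1 than in siNT at 24 h, by 0.51 ± 0.16, 0.43 ± 0.08 and 0.39 ± 0.06 in the latter comparison (edgeR adjusted p of 0.0121, 0.000143 and 2.18e-05). MX1 was at 11.4 ± 0.724, 5.99 ± 0.367 and 7.40 ± 1.20 CPM, and GVINP1, a pseudogene of the large GTPases, at 0.920 ± 0.0349, 1.39 ± 0.252 and 1.12 ± 0.241 CPM.

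The interferons and factors that act on GBP promoters were tested in 23 of 25 genes. After poly(I:C) 21 rose and 1 fell in Mock, 19 rose and 1 fell in siNT and all 23 rose in siELMO1 cells, with medians of 1.56, 0.87 and 1.61 beside medians of all genes near 0. Over all genes tested 30.7%, 28.6% and 28% rose and 29.6%, 25.2% and 26.9% fell in the same order. IFNB1 and IFNL1, 2 of the 23, passed the filter through the 24 h libraries alone and had to differ with time. IRF1, a direct activator of GBP promoters, was at 322 ± 37.3, 229 ± 37.6 and 276 ± 40.6 CPM at 24 h, and its response was larger in siELMO1 than in siNT by 0.93 ± 0.15 (edgeR adjusted p of 0.000138). STAT2 was at 547 ± 22.1, 386 ± 50.4 and 548.7 ± 42.5 CPM and was higher in siELMO1 than in siNT by 0.51 ± 0.08 (edgeR adjusted p of 2.51e-05). JAK1 and STAT3 were higher in siELMO1 than in siNT at 24 h by 0.31 ± 0.04 and 1.10 ± 0.07 (edgeR adjusted p of 1.78e-05 and 1.67e-09). RELA differed by −0.04 ± 0.06 (edgeR adjusted p of 0.597).

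At 24 h 11 of the 23 were lower in siNT than in Mock and 2 higher, and 9 were higher in siELMO1 than in siNT and 3 lower. Over all genes tested 24.9% were lower and 25.2% higher in the first comparison, and 26% higher and 26.5% lower in the second. IFNB1 and IFNG were looked at after the values were seen. IFNB1, the type I interferon that TLR3 induces, was listed at 0 in Mock and siNT at 0 h and was at 23.0 ± 3.85 CPM for Mock, 1.68 ± 0.240 CPM for siNT and 7.64 ± 3.43 CPM for siELMO1 cells at 24 h, higher in siELMO1 than in siNT by 2.18 ± 0.31 (edgeR adjusted p of 5.10e-05). IFNG, the type II interferon, was listed at 0 in all 18 libraries, where 3 counts correspond to 0.0752 CPM at most.

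The partners of GBP proteins in pathogen defence were tested in 19 of 20 genes. In Mock cells 14 rose and 3 fell after poly(I:C), in siNT cells 15 rose and 2 fell and in siELMO1 cells 14 rose and 4 fell. Over all genes tested 30.7%, 28.6% and 28% rose and 29.6%, 25.2% and 26.9% fell in the same order. AIM2 was under 1 CPM in every 0 h library and had to differ with time. At 24 h 13 of 19 were lower in siNT than in Mock and 2 higher, and 11 were higher in siELMO1 than in siNT and 2 lower, with medians of −0.42 and 0.32. Over all genes tested 24.9% were lower and 25.2% higher in the first comparison, and 26% higher and 26.5% lower in the second. APOL6 and APOL2, apolipoproteins of the family that permeabilizes bacterial membranes, were higher in siELMO1 than in siNT by 0.45 ± 0.08 and 0.65 ± 0.08, and CASP4, the caspase that the GBP1 coat recruits, by 0.32 ± 0.08 (edgeR adjusted p of 0.000194, 3.90e-06 and 0.00385). SQSTM1, an autophagy receptor, was lower by −0.60 ± 0.05 (edgeR adjusted p of 1.07e-08). FURIN, the protease on which GBP5 acts, was at 147 ± 23.7, 247 ± 13.1 and 284 ± 21.6 CPM at 24 h, higher in siNT and siELMO1 than in Mock by 0.75 ± 0.09 and 0.95 ± 0.09 (edgeR adjusted p of 1.45e-06 and 1.10e-07). LGALS8, a sensor of damaged vacuoles, differed between siELMO1 and siNT by 0.02 ± 0.06 (edgeR adjusted p of 0.824).

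The genes listed for protein prenylation and for processing of a prenylated C terminus moved in both directions. The list is a general one that also holds RABGGTA, RABGGTB and PDE6D. Which of its members act on GBP1, GBP2 and GBP5 was not tested. Of 9 genes 5 rose and 2 fell in Mock, 2 rose and 3 fell in siNT and 4 rose and 2 fell in siELMO1 cells after poly(I:C), with medians of 0.18, −0.06 and 0.02. Over all genes 30.7% rose and 29.6% fell in Mock, 28.6% and 25.2% in siNT and 28% and 26.9% in siELMO1. The farnesyltransferase subunits FNTA and FNTB were at 37.0 ± 2.54 and 36.6 ± 3.93 CPM for siELMO1 cells at 24 h and PGGT1B, a subunit of the enzyme that attaches geranylgeranyl groups, at 27.6 ± 0.504 CPM. FNTB was lower in siELMO1 than in siNT at 0 h by −0.91 ± 0.07 and at 24 h by −0.22 ± 0.07 (edgeR adjusted p of 4.03e-09 and 0.0126). RABGGTB was lower by −0.75 ± 0.08 at 24 h, while ICMT, which methylates the processed C terminus, was higher by 0.46 ± 0.05 (edgeR adjusted p of 6.90e-07 and 5.16e-07). ZMPSTE24, a CaaX protease, differed by −0.04 ± 0.05 (edgeR adjusted p of 0.442).

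For each gene the 3 tested genes with the most similar pattern over the 6 condition means were found by the root mean square difference of centred log2 CPM. For GBP1 these were MEFV, IFIT3 and IFI6, with differences of 0.25, 0.34 and 0.35. GBP2 lay nearest to OAS1, TRANK1 and CD274, at 0.25, 0.29 and 0.33. GBP3 lay nearest to PHF11, MOV10 and GMPR, at 0.12, 0.12 and 0.14. GBP4 and GBP5 had larger distances, from 0.61 to 0.72 for TNFSF10, RSAD2 and XAF1 and from 0.68 to 0.79 for CXCL10, CXCL11 and SLC15A3. MEFV, the genes nearest to GBP4 and GBP5, and GBP4 and GBP5 themselves were below 1 CPM in the means at 0 h, with CXCL10 listed at 0 in all 3 conditions and MEFV in Mock and siELMO1, so that these distances depend on the prior count of 2. All 15 correlations over the 6 conditions were from 0.986 to 0.999, which describes 6 points that share libraries and fall into 0 h and 24 h levels.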

How the data were processed

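RNA was sequenced from EA.hy926 cells in 6 conditions with 3 libraries each. Per the labels and the methods of the study, the authors aligned reads to GRCh38 with STAR and quantified them with StringTie, and they deposited estimated counts (expected counts) for each gene and each transcript, whole numbers without normalization. These counts derive from coverage and an assumed read length, which is not given in the sources used here, so that 1 count need not be 1 read. Totals were 40.4 to 73.9 M, and the floor for a gene at 0 was set at 3 counts (0.0383 to 0.0752 CPM), meant for counting error only. The study reports fewer read pairs for each sample than these totals, so 3 counts stand for fewer than 3 read pairs. Folds against a gene at 0 would be smaller with a higher floor. Each column of the matrices was matched to its sample by the library name in the labels, and 0 columns were left out.

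The 15167 genes with 100 or more counts in all libraries together and 1 CPM or more in some library were tested with the quasi-likelihood test of edgeR 4.0.16 (R 4.3.3), 1 coefficient for each condition, TMM factors (0.958 to 1.06) and Benjamini-Hochberg adjustment over all genes, called at an adjusted p under 0.05. The tests are two-sided. The study used voom and dream of limma, and limma-voom (limma 3.58.1) was an alternative, as were DESeq2 1.42.0, library totals, upper-quartile factors, filterByExpr, no filter, only the groups compared, the replicate number as a block and each library left out, 26 settings in all. The procedure was tested on simulated data. Transcripts were tested in the same way, and TPM were computed from transcript counts and GENCODE v44 lengths. Coding sequences were aligned with Biopython 1.88, and promoters are those of RefSeq.

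The members and the lists of related genes were chosen with earlier results of these data known. Named are every member, ELMO1, at most 6 genes of each list by the highest mean CPM, and the 3 genes nearest to each member; others are marked as chosen after their values were seen. Some genes that the rule or the marker lists name are not reported here. Deviations from the condition means correlated between libraries sharing a replicate number with a median r of 0.0280 over 45 pairs (9640 genes), and all 3 pairs were over 0.1 for Mock and siNT at 24 h (0.251 to 0.335) but not for any other pair of conditions that was compared.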

Additional observations from a re-analysis of the deposited data

Results flagged for a closer look

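The following differences between poly(I:C) responses passed the test of the interaction itself in edgeR (adjusted over 15167 genes). Between siNT and Mock these were GBP1 at −1.96 (adjusted p of 3.16e-07), GBP2 at −1.94 (0.000148) and GBP3 at −1.09 (7.52e-06), as log2 differences of the responses. Between siELMO1 and Mock they were GBP1 at −0.87 (adjusted p of 0.00225), GBP2 at −1.35 (0.00511) and GBP3 at −0.75 (0.000365). Between siELMO1 and siNT they were GBP1 at 1.09 (adjusted p of 0.000167) and GBP5 at 6.78 (0.0160), where the value of GBP5 depends on how counts of 0 in siELMO1 at 0 h are treated and is no measured fold.

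For GBP1 the siNT and siELMO1 levels at 24 h overlapped, 247, 242 and 354 CPM beside 285, 283 and 349 CPM, while those at 0 h did not, 8.57 to 9.00 CPM beside 4.12 to 4.84 CPM. The 3 pairs of responses share libraries with each other. No explanation of these differences was tested.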

How the results depend on the processing

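Of 60 log2 changes of the 5 genes, 45 kept their direction and their side of the threshold under all 26 alternatives, 15 changed side under at least 1 of them, and none reversed. The 45 include the responses of GBP4 and GBP5 to poly(I:C), which had to differ with time. Counts of genes that moved by over 1.5 times were few and lay at 0 h or in the responses. For siELMO1 against siNT at 0 h the count of genes lower went from 3 to 1 with limma-voom, and without a library from 1 to 3. For siELMO1 against Mock at 0 h the count of genes higher went from 2 to 1 with limma-voom and with only the groups compared, and without a library from 1 to 2; the count of genes lower went from 1 to 0 with limma-voom, filterByExpr, no filter and only the groups compared, and without a library from 0 to 1. For the response of siELMO1 against siNT the count higher, 2, ran from 1 to 3 without a library, 1 without siNT replicate 2 at 0 h. For siELMO1 against Mock 0 genes had a higher response in edgeR, where 0 had an unadjusted p under 0.05, and 1 (GBP5) with DESeq2, while limma-voom gave 0. With filterByExpr, 2 GBP transcripts in place of 1 were lower for siNT against Mock after 24 h. The causes of these changes were not tested.

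With the replicate number as a block, 59 of 60 calls were the same. For Mock and siNT at 24 h, the comparison whose numbers pair the libraries, GBP1 was at −1.15 and GBP5 at −2.29 with the replicate block. The response of GBP5 in siNT against Mock passed the threshold with the replicate block (−2.37, adjusted p of 0.0473). Library totals shifted the median of all genes for Mock 24 h against 0 h to −0.11, and all 5 genes were higher there with each scaling, which for GBP4 and GBP5 is no support. The share of each gene in the per-length sum moved by more than 1 SD in 11 of 30 values when a single length was used for each gene. GBP4 and GBP5 at 0 h are limited by depth, at 14 or fewer counts in a library.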
